A study of Mus musculus with 4 samples.

Results

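The 36 genes described here are mouse neuronal genes that lie in very long stretches of the genome and encode synaptic adhesion molecules, scaffold proteins, channel subunits, signaling proteins and nuclear regulators. They were chosen by name, with earlier results of these data already known. Each was read from 1 probe set, the brightest on average of those assigned to that gene alone. Of 18194 genes measured in this way, 35 were among the 36 listed, and Cadm2 was not analysed here. Values above background on at least 1 array were found for 34 of the 35. RefSeq spans of the 35 genes in the mouse assembly GRCm38.p6 ran from 520 kb for Rims1 to 2390 kb for Dmd, with a median of 1125 kb, and 24 of them were at least 1000 kb long. Among 18033 measured genes with a span in that table, 204 reached 500 kb and 54 reached 1000 kb.

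Cortex of P4H-TM deficient (P4htm-/-) and WT mice, all of strain C57BL/6J and 3 months of age, was compared 24 h after the left middle cerebral artery had been closed for good (pMCAO). P4H-TM is a transmembrane prolyl 4-hydroxylase that takes part in the control of hypoxia-inducible factors, and the P4htm-/- line was backcrossed to C57BL/6. The 4 conditions were P4htm-/- ipsilateral (injured) cortex, called KO_i here, P4htm-/- contralateral cortex (KO_c), WT ipsilateral cortex (WT_i) and WT contralateral cortex (WT_c), and the contralateral tissue came from operated mice, with no unoperated animals among the arrays. RNA of 4 mice was pooled per condition and read on 1 Affymetrix GeneChip mouse genome array, so there were no replicates, no test was made, and every value is only as precise as a single array allows.

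Genes of this length are frequent among those that neurons use to form and specify synapses. A polymerase takes many hours to cross such a gene, and most of what it transcribes is intron, so a new message takes longer to make than that of a compact gene. Neurexins, neuroligins, teneurins, contactins and neuregulins act where an axon meets its target, and several of these genes are known from the human genetics of neurodevelopmental disorders.

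The values are on a log2 scale, where a difference of 1 is a 2-fold change, and were deposited with 2 decimals. A value counted as background up to 4.7845, below which 95% of 83 probe sets of odorant, vomeronasal and bitter taste receptors lay, and a gene was compared between a pair of arrays if 1 or both exceeded it. A gene was called higher or lower when the arrays differed by at least 1.5-fold, or 0.585 on the log2 scale. The array medians were 5.53 to 5.55, and 59.2% to 59.8% of probe sets were above background. P4htm read 8.23 in KO_i and 8.27 in KO_c, against 10.02 in WT_i and 10.03 in WT_c, and the place of its probe sets relative to the deletion is not known here. Markers of cortical projection neurons were detected for all 12 measured, and those of striatal projection neurons for all 10 measured. Ttr, the transthyretin of the choroid plexus, was at 13.62 in KO_i and 9.03 in KO_c, and at 14.06 in WT_i and 8.71 in WT_c.

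In WT cortex nearly all of the very long neuronal genes read lower on the injured side, whereas in P4htm-/- cortex they lay on both sides of 0. The median log2 difference of the 34 detected genes, ipsilateral minus contralateral, was 0.005 in P4htm-/- cortex, where 17 genes were above 0, 16 were below and Cntnap2 was at 0. Averaging over each gene's probe sets gave -0.064 instead, and reading the dimmest detected one gave -0.065. Of all detected genes in the same comparison, 41.7% were above 0 and 54.7% below. In WT cortex the median was -0.23, a level 14.7% lower, and 33 genes were below 0, against 52.9% of all detected genes. Macrod2 alone was above 0, as were 45% of all genes. The median of all genes was -0.02 in each genotype. Quartiles of the very long genes in WT cortex were -0.28 and -0.175, beside a 10th percentile of -0.25 and a 25th percentile of -0.14 over all genes. Fewer neurons and less RNA per neuron cannot be told apart in these bulk samples.

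These differences were small, and few passed 1.5-fold. In P4htm-/- cortex 0 of the 34 genes were called, while 1.53% of all detected genes were called higher and 0.165% lower. In WT cortex Lrp1b was called lower and 0 genes were called higher, against 0.443% lower and 2.42% higher among all genes. As a measure of technical scatter, the differences of probe sets of 1 gene with means of at least 8 varied with an SD of 0.069 in the P4htm-/- comparison and 0.121 in the WT comparison. Beyond 1 such SD lay 17 of the 34 genes in P4htm-/- cortex and 33 in WT cortex, and beyond 2 lay 8 and 13. All detected genes had quartiles of -0.1 and 0.07 in P4htm-/- cortex and -0.14 and 0.13 in WT cortex. Their 10th and 90th percentiles were -0.19 and 0.17 in P4htm-/- cortex and -0.25 and 0.3 in WT cortex. Many of them thus lay beyond 1 SD, and also beyond 2. The 33 genes beyond 1 SD in WT cortex include Macrod2, which was above 0, and leave out Tenm4. The SD comes from bright probe sets and was applied to dimmer genes as well. This scatter holds no variation between mice.

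**Figure D1:**
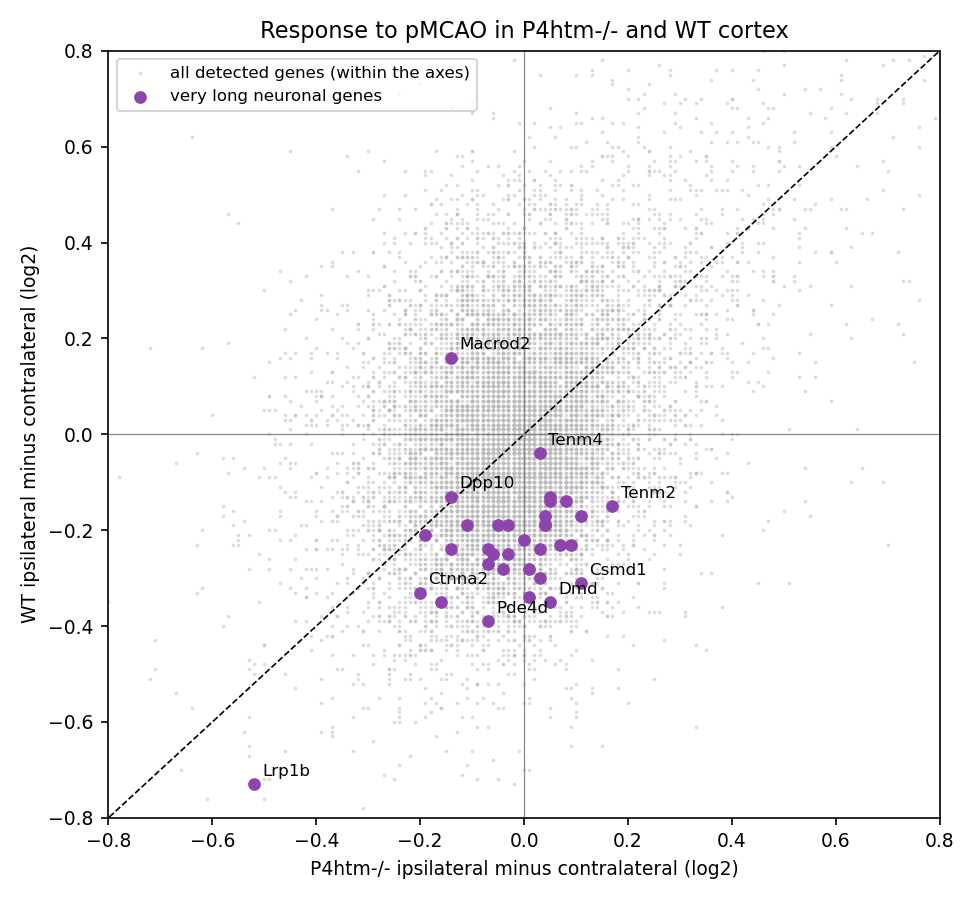
Log2 difference of ipsilateral minus contralateral cortex in P4htm-/- mice (horizontal) and in WT mice (vertical), with 1 grey point per detected gene inside the axes, 1 purple point per very long neuronal gene and a dashed line where both differences are equal. Purple points straddle 0 on the horizontal axis and lie below 0 on the vertical axis except for Macrod2, and Lrp1b is lowest in both genotypes.

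Neuron markers moved with the long genes. The 14 general neuron markers, among them Rbfox3, Map2 and Snap25, had a median difference of -0.015 in P4htm-/- cortex and -0.195 in WT cortex, with 8 and 12 of them below 0. Their median level was 11.8 in KO_i and 11.785 in KO_c, and 11.72 in WT_i and 11.84 in WT_c. The 12 markers of cortical projection neurons had medians of -0.015 in P4htm-/- and -0.165 in WT cortex, and all 12 were below 0 in WT cortex. Markers of interneurons had -0.01 in P4htm-/- and -0.13 in WT cortex, and those of striatal projection neurons had 0.05 and -0.215. Among other cells, 14 detected microglia and macrophage markers had medians of 0.465 in P4htm-/- and 0.52 in WT cortex, 12 reactive astrocyte genes had 1.955 and 2.165, and 14 oligodendrocyte markers had -0.12 and -0.065. The 8 detected markers of hippocampus and thalamus, at -0.025 in P4htm-/- and 0.015 in WT cortex, did not follow the other neuron lists. Astrocyte markers had 0.005 in P4htm-/- and -0.06 in WT cortex, and endothelial and mural markers had 0.09 and 0.065. Choroid plexus and ependyma markers had 0.635 in P4htm-/- and 0.98 in WT cortex, and neutrophil markers, of which only 5 and 4 were detected, had 0.48 and 1.305. The part of cell composition in the difference of the long genes was not tested.

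**Figure D2:**
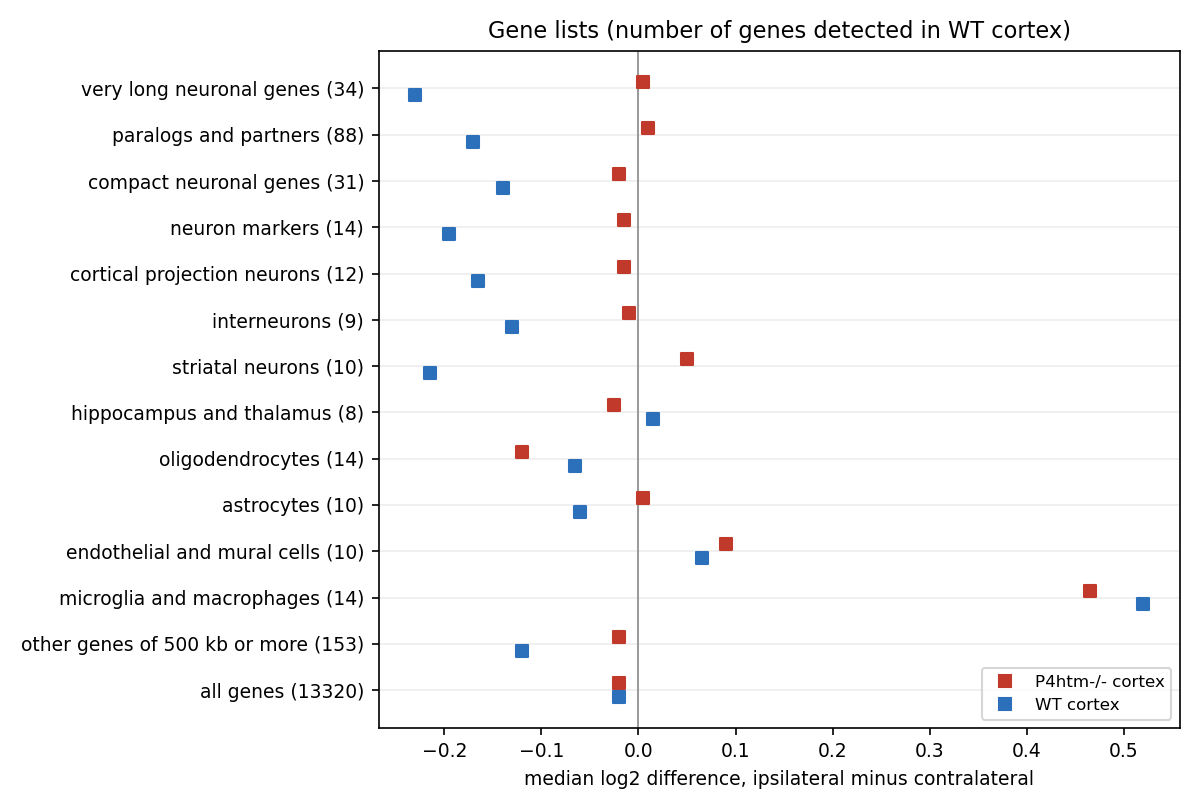
Median log2 difference, ipsilateral minus contralateral, of gene lists in P4htm-/- cortex (red) and WT cortex (blue), with the number of genes detected in WT cortex in brackets. The very long neuronal genes have the lowest WT median shown, -0.23, and the markers of neurons, projection neurons, interneurons and striatal neurons lie from -0.13 to -0.215 in WT cortex and from -0.015 to 0.05 in P4htm-/- cortex. The 6 contactin and IgLON partners, described below and not drawn, had -0.275 in WT cortex.

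Between the genotypes, the very long genes differed little on the uninjured side and more on the injured side. The median of KO_c minus WT_c was -0.03, with 11 genes above 0, 20 below and 3 at 0, beside 43.1% of all genes above and 53.1% below. The median of KO_i minus WT_i was 0.185, a ratio of 1.137, with 30 genes above 0 and 4 below, beside 46.9% of all genes above and 50.8% below. Cntn5, Dpp10, Lrp1b and Macrod2 were the 4 below 0. In both comparisons 0 of the 34 genes passed 1.5-fold. Of all genes, 0.0898% were called higher and 0.576% lower in KO_i, and 0.227% were called higher and 0.159% lower in KO_c, each against WT. Beyond 1 SD of same-gene probe sets lay 30 genes on the injured side, where the SD was 0.098, and 9 on the uninjured side, where it was 0.111. Quartiles of all detected genes were -0.14 and 0.1 on the injured side, also beyond 1 SD, and -0.09 and 0.06 on the uninjured side. The comparison of the injured sides and the WT response share the WT_i array and are not independent of each other.

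The response in P4htm-/- cortex minus that in WT cortex had a median of 0.215 and was above 0 for 32 of the 34 genes, beside 49.8% of all genes. This median depended on the probe sets, at 0.13 after averaging over them and 0.11 with the dimmest detected one. It was below 0 for Macrod2, at -0.3, and for Dpp10, at -0.01. WT_i held the lowest value of the 4 arrays for 29 genes (85.3%), against 31.6% of all detected genes. KO_i was lowest for Cntn5, Dpp10 and Lrp1b, while the lowest value was shared by KO_c and WT_i for Csmd1 and by KO_i and WT_c for Macrod2. WT_c held the highest value for 18 genes (52.9%), against 29.2% of all detected genes. The other 3 arrays lay within 0.2 of each other for 28 genes, with a median range of 0.09, and WT_i stood a median of 0.145 below the lowest of them. The same array was lowest for 78.6% of the 14 neuron markers.

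**Figure D3:**
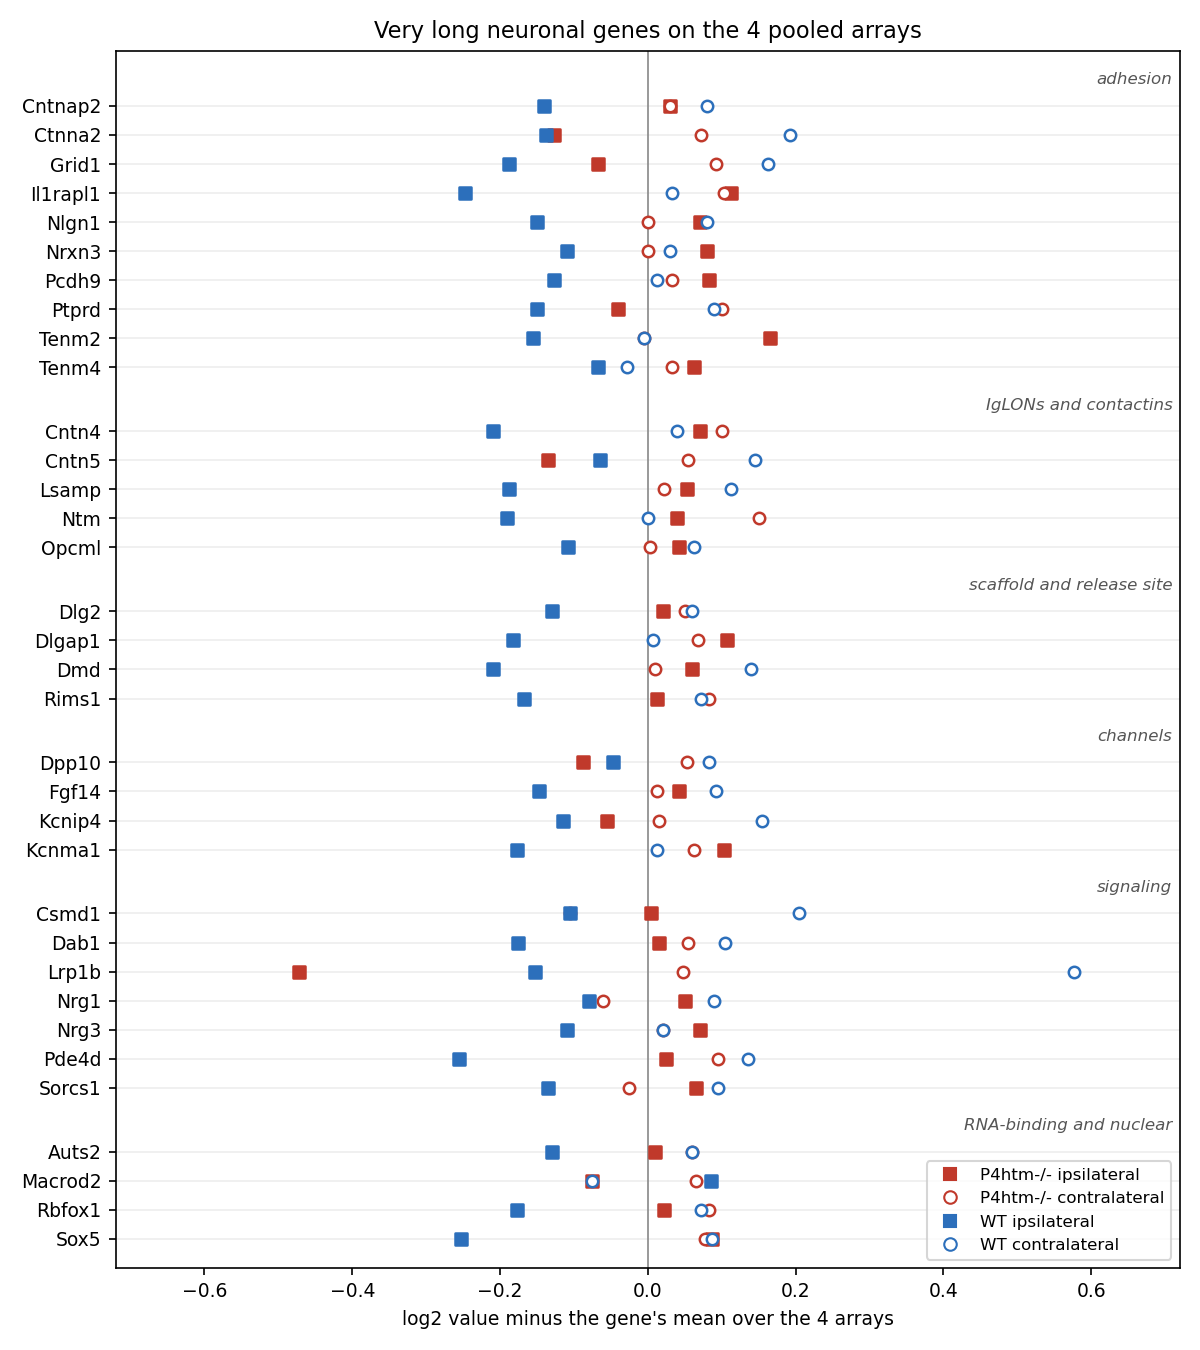
Log2 value of each of the 34 detected very long neuronal genes on each array minus that gene's mean over the 4 arrays, in P4htm-/- (red) and WT cortex (blue), ipsilateral (squares) and contralateral (open circles), grouped by role. Blue squares stand at the left for 29 genes, and Lrp1b has the widest spread.

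Promoter sequence was read for the members, since nearly all of them lay on 1 side of 0 in WT cortex and the P4htm-/- mice lack an enzyme of the hypoxia-inducible factor pathway. RefSeq promoter windows in GRCm38.p6 were found for 28 of the 34 detected genes, and the 250 bases before each annotated start were searched on both strands for ACGTG and GCGTG, the core of the hypoxia response element to which those factors bind. At least 1 such core was found in 20 of 46 promoters of these genes (43.5%) and in 38.6% of 32851 mouse promoters. The windows of Dmd, Sox5 and Lsamp are shown because these 3 had the widest gaps between the P4htm-/- and WT responses (0.4, 0.35 and 0.33) among the 28 on the probe set used. They are written 5′ to 3′ in the direction of the gene, with the core in capitals where there is one.
Dmd, chrX:82948620-82948869, plus strand: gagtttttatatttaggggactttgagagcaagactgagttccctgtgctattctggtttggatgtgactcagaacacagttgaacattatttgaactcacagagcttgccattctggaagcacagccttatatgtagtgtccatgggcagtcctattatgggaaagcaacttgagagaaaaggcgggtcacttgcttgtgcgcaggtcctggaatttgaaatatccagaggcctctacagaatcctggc
Sox5, chr6:143947107-143947356, minus strand: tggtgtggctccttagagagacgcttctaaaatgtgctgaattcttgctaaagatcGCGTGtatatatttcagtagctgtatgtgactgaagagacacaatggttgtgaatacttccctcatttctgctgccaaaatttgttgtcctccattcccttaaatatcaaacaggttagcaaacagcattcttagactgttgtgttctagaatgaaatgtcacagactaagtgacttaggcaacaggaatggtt
Lsamp, chr16:39984114-39984363, plus strand: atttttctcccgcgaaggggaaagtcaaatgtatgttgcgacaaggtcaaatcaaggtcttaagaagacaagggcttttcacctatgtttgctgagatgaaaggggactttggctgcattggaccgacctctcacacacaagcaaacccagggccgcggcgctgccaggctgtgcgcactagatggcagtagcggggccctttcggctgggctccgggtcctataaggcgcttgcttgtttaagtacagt
The Dmd and Lsamp windows held 0 cores and the Sox5 window held 1, and the table lists a further start for Dmd and for Lsamp. A match is a description of these letters and not a bound site.

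The adhesion genes included the presynaptic neurexin Nrxn3 and Nlgn1, a neuroligin that binds neurexins from the postsynaptic side. Of the 10 measured, 6 were above 0 and 3 below in P4htm-/- cortex, with a median of 0.02, and all 10 were below 0 in WT cortex, with a median of -0.225. Nrxn3 read 11.42 in KO_i and 11.34 in KO_c, and 11.23 in WT_i and 11.37 in WT_c. Nlgn1 read 9.49 in KO_i and 9.42 in KO_c, and 9.27 in WT_i and 9.50 in WT_c. In both genes WT_i was lowest and the other 3 arrays lay within 0.08 of each other. The other detected probe sets of Nrxn3 differed by 0.02, -0.15 and 0.15 in WT cortex, so its direction there depends on the probe set. Il1rapl1 encodes an interleukin receptor family member that organizes synapses. It read 7.58 in KO_i and 7.57 in KO_c, and 7.22 in WT_i and 7.50 in WT_c. Its difference between the injured sides, 0.36 or 1.283-fold, was the highest of the 34 genes.

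Teneurins are large transmembrane proteins that bind latrophilins across the synapse. Tenm2 read 11.27 in KO_i and 11.10 in KO_c, and 10.95 in WT_i and 11.10 in WT_c. Its uninjured sides were equal, and the injured side was the highest array in P4htm-/- and the lowest in WT mice. Other probe sets of Tenm2 gave 0.23 in P4htm-/- and -0.09 in WT cortex, and -0.21 and -0.72. Its direction in P4htm-/- cortex thus depends on the probe set. Tenm4 read 10.51 in KO_i and 10.48 in KO_c, and 10.38 in WT_i and 10.42 in WT_c, and its WT difference of -0.04 was the nearest to 0 of the 33 genes below 0, while its other probe sets gave -0.02 and 0.12. Ctnna2, the neuronal alpha-catenin that ties cadherins to actin, read 8.84 in KO_i and 9.04 in KO_c, and 8.83 in WT_i and 9.16 in WT_c. Grid1, a delta-type glutamate receptor subunit bound by cerebellins, read 8.27 in KO_i and 8.43 in KO_c, and 8.15 in WT_i and 8.50 in WT_c. For Ctnna2 and Grid1 the injured side of each genotype stood below both uninjured sides. The other probe set of Grid1 fell more in P4htm-/- (-0.27) than in WT cortex (-0.15). Cntnap2, a neurexin-like protein of axons, differed by 0 in P4htm-/- and -0.22 in WT cortex, and its other detected probe set by -0.08 and -0.21. Ptprd, a presynaptic receptor phosphatase, differed by -0.14 in P4htm-/- and -0.24 in WT cortex. Its other detected probe sets gave -0.26, -0.36, 0.12 and -0.83 in WT cortex, so its direction there depends on the probe set. The one at 0.12 gave -0.37 in P4htm-/- cortex and 0.6 in KO_c minus WT_c, past 1.5-fold. Pcdh9, a protocadherin, differed by 0.05 in P4htm-/- and -0.14 in WT cortex.

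Another set of surface proteins is held in the membrane by a lipid anchor, namely the IgLON proteins of Opcml, Ntm and Lsamp and the axonal contactins of Cntn4 and Cntn5. Of these 5 genes 2 were above 0 and 3 below in P4htm-/- cortex, with a median of -0.03, and all 5 were below 0 in WT cortex, with a median of -0.21. Lsamp read 10.84 in KO_i and 10.81 in KO_c, and 10.60 in WT_i and 10.90 in WT_c. Cntn4 read 8.62 in KO_i and 8.65 in KO_c, and 8.34 in WT_i and 8.59 in WT_c. In both genes WT_i stood apart from 3 arrays that lay within 0.09 of each other. The other detected probe set of Lsamp did not show this, at -0.19 in P4htm-/- and -0.23 in WT cortex, with KO_i lowest, and that of Cntn4 differed by 0 and -0.03. Cntn5 read 5.88 in KO_i and 6.07 in KO_c, and 5.95 in WT_i and 6.16 in WT_c, and its differences of -0.19 in P4htm-/- and -0.21 in WT cortex were close. Opcml differed by 0.04 in P4htm-/- and -0.17 in WT cortex. Ntm differed by -0.11 and -0.19, on a probe set of a kind that can cross-hybridize, and its other probe sets gave -0.08 and -0.12 in WT cortex.

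The scaffold genes were Dlg2, which encodes the postsynaptic density protein PSD-93, Dlgap1, whose protein binds that family, Rims1, an organizer of the presynaptic release site, and Dmd, the dystrophin gene. In P4htm-/- cortex 2 were above 0 and 2 below, with a median of 0.005, and in WT cortex all 4 were below 0, with a median of -0.215. Dmd read 8.89 in KO_i and 8.84 in KO_c, and 8.62 in WT_i and 8.97 in WT_c. Dlgap1 read 11.48 in KO_i and 11.44 in KO_c, and 11.19 in WT_i and 11.38 in WT_c. For both, KO_i was above KO_c and WT_i below WT_c. Of the other 5 detected probe sets of Dlgap1, all were below 0 in WT cortex, but their P4htm-/- differences ran from -0.28 to 0.09 and only 1 was above 0. The Dmd response differed by 0.4 between the genotypes, and its other detected probe set, at 8.05 in KO_i, 7.96 in KO_c, 7.96 in WT_i and 8.16 in WT_c, ran in the same directions. Rims1 read 11.14 in KO_i and 11.21 in KO_c, and 10.96 in WT_i and 11.20 in WT_c. Dlg2 read 10.87 in KO_i and 10.90 in KO_c, and 10.72 in WT_i and 10.91 in WT_c. Dlg2 did not give a single answer across probe sets, since the other detected ones differed by 0 and 0.28 in WT cortex.

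Channel genes were Kcnip4 and Dpp10, accessory subunits of the Kv4 potassium channels that carry A-type current, Kcnma1, the pore of the BK potassium channel, and Fgf14, an intracellular growth factor homolog that binds sodium channels. In P4htm-/- cortex 2 were above 0 and 2 below, with a median of -0.02, and in WT cortex all 4 were below 0, with a median of -0.215. Kcnma1 read 10.29 in KO_i and 10.25 in KO_c, and 10.01 in WT_i and 10.20 in WT_c. Fgf14 read 8.41 in KO_i and 8.38 in KO_c, and 8.22 in WT_i and 8.46 in WT_c. WT_i was the lowest array for both on the probe set used. The other detected probe sets of Fgf14 differed by -0.35 and -0.18 in P4htm-/- cortex. On the brighter of them KO_i was lowest, at 6.21 against 6.28 in WT_i. Kcnip4 read 9.64 in KO_i and 9.71 in KO_c, and 9.58 in WT_i and 9.85 in WT_c. Dpp10 read 11.02 in KO_i and 11.16 in KO_c, and 11.06 in WT_i and 11.19 in WT_c. Dpp10 had nearly the same difference in P4htm-/- cortex (-0.14) as in WT cortex (-0.13) on this probe set, while its other detected one gave -0.1 and -0.22.

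Signaling genes ranged from ligands to receptors and enzymes. Nrg1 and Nrg3 encode neuregulins, ligands of ErbB receptors, and Erbb4, their neuronal receptor, was not above background on any array, with 2.98 in KO_i, 2.83 in KO_c, 3.06 in WT_i and 2.84 in WT_c. Of the 7 detected, 4 were above 0 and 3 below in P4htm-/- cortex, with a median of 0.05, and all 7 were below 0 in WT cortex, with a median of -0.28. Nrg1 read 5.97 in KO_i and 5.86 in KO_c, and 5.84 in WT_i and 6.01 in WT_c. Nrg3 read 8.39 in KO_i and 8.34 in KO_c, and 8.21 in WT_i and 8.34 in WT_c. Both neuregulins were higher on the injured side in P4htm-/- and lower in WT cortex, by less than 0.2 each. Pde4d, a phosphodiesterase that degrades cyclic AMP, read 10.02 in KO_i and 10.09 in KO_c, and 9.74 in WT_i and 10.13 in WT_c. Its WT difference of -0.39, or 0.763-fold, was the lowest of the 34 after that of Lrp1b. Dab1, the adaptor that carries the reelin signal, read 9.64 in KO_i and 9.68 in KO_c, and 9.45 in WT_i and 9.73 in WT_c. Its dimmest probe set differed by -0.19 in P4htm-/- and 0.11 in WT cortex, while the others were below 0 in WT cortex.

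Lrp1b, a large receptor of the LDL receptor family, read 5.50 in KO_i and 6.02 in KO_c, and 5.82 in WT_i and 6.55 in WT_c. It was the only one of the 34 to pass 1.5-fold in any comparison, at -0.73 or 0.603-fold in WT cortex, and it differed by -0.52 in P4htm-/- cortex. Both P4htm-/- arrays lay below the WT array of the same side, by -0.32 in KO_i and -0.53 in KO_c. The values were within 2 units of background, and the other probe sets of Lrp1b were not above it. Csmd1, a membrane protein with complement control domains, read 6.34 in KO_i and 6.23 in KO_c, and 6.23 in WT_i and 6.54 in WT_c. Its response differed by 0.42 between the genotypes, the widest such gap of the 34, and WT_c stood above the other arrays. Its other detected probe set differed by 0.03 in P4htm-/- and -0.46 in WT cortex. Sorcs1, a sorting receptor of the Vps10 family, read 7.91 in KO_i and 7.82 in KO_c, and 7.71 in WT_i and 7.94 in WT_c. Its other probe sets differed by 0.32 and -0.02 in WT cortex, so the direction of Sorcs1 depends on the probe set.

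The nuclear and enzyme genes were Rbfox1, a neuronal splicing factor, Auts2, a regulator of transcription in developing neurons, Sox5, a transcription factor of deep-layer projection neurons, and Macrod2, an ADP-ribose hydrolase. In P4htm-/- cortex 1 was above 0 and 3 below, with a median of -0.055, and in WT cortex 1 was above and 3 below, with a median of -0.22. Sox5 read 8.25 in KO_i and 8.24 in KO_c, and 7.91 in WT_i and 8.25 in WT_c. The other 3 arrays lay within 0.01 of each other and WT_i 0.33 below the lowest of them, the widest such gap of the 34. Rbfox1 read 12.21 in KO_i and 12.27 in KO_c, and 12.01 in WT_i and 12.26 in WT_c. Its other probe sets with means of at least 8 differed by -0.36 and -0.37 in WT cortex. The dimmest one, at 5.53 in WT_i and 5.52 in WT_c, differed by 0.01. Auts2 differed by -0.05 in P4htm-/- and -0.19 in WT cortex. Macrod2 was the exception, at 6.32 in KO_i and 6.46 in KO_c, and 6.48 in WT_i and 6.32 in WT_c. Its other detected probe set read 5.12 in KO_i and 4.98 in KO_c, and 4.93 in WT_i and 5.26 in WT_c, which are the opposite directions, so no direction is given for Macrod2.

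Other probe sets of the same genes were read as a further view of the same RNA. The 35 genes had 111 probe sets, of which 91 were detected. Of those not used above, 19 were above 0 and 35 below in P4htm-/- cortex, with a median of -0.04, beside 43.8% above and 52.9% below among all probe sets. In WT cortex 8 were above 0 and 46 below, with a median of -0.2, beside 43.6% and 54.4%. KO_i minus WT_i was above 0 for 46 and below for 8, beside 50.3% and 47.5%, and KO_c minus WT_c was above 0 for 29 and below for 27, beside 44.1% and 52.5%. Of the probe sets of these genes with a mean of at least 8, 50 of 52 were below 0 in WT cortex and 48 of 52 were higher in KO_i than in WT_i. Among all genes with a mean of at least 8, read from 1 probe set each, these shares were 59.8% and 50.3%. Of all detected probe sets, 0 of 91 were called lower in P4htm-/- cortex, beside 0.186% of probe sets of all genes, and 7 of 89 in WT cortex, beside 0.799%, each as measured. None was called higher in either genotype, beside 1.27% in P4htm-/- and 2.13% in WT cortex. Between the injured sides 0 of 88 were called, beside 0.215% higher and 0.498% lower, and between the uninjured sides 1 was called higher and 2 lower, beside 0.362% and 0.323%. The 7 called in WT cortex had means under 8 and were singled out after their values were seen. Lrp1b was 1 of them. A further probe set of Fgf14 read 6.21 in KO_i and 6.56 in KO_c, and 6.28 in WT_i and 7.09 in WT_c. One of Ptprd read 5.73 in KO_i and 6.03 in KO_c, and 5.56 in WT_i and 6.39 in WT_c. One of Tenm2 read 6.77 in KO_i and 6.98 in KO_c, and 7.04 in WT_i and 7.76 in WT_c, so that it differed by -0.78 between KO_c and WT_c as well. In these, WT_c stood highest. The remaining 3 calls, in Fgf14, Kcnma1 and Pde4d, rest on a WT_i value of 4.47 that was not above background, so that only a bound can be given, and the differences were -0.59, -0.72 and -0.41 or lower. The bound of Pde4d is short of 1.5-fold, so that 6 of the 7 calls are shown to pass it.

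**Figure D4:**
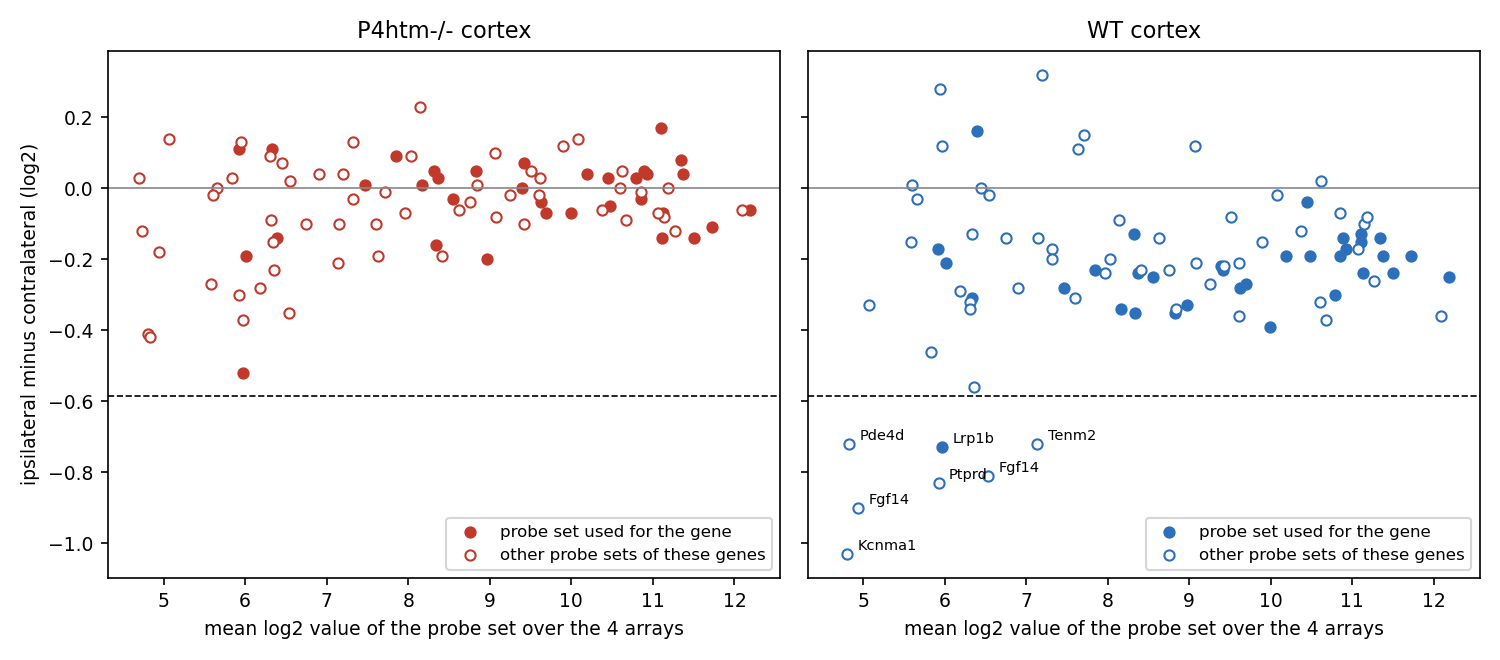
Log2 difference of ipsilateral minus contralateral cortex of the detected probe sets of the very long neuronal genes in P4htm-/- (left) and WT cortex (right), against the mean of the probe set over the 4 arrays, with filled points for the probe set used for a gene and a dashed line at 1.5-fold. In WT cortex 79 of 89 probe sets are below 0 and the 7 below the dashed line all have means under 8, while none is below it in P4htm-/- cortex, and differences that rest on values under background are drawn as measured.

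Length was then set against the response in the rest of the array. Over the other genes, the median of WT_i minus WT_c was 0.04 for spans under 20 kb, -0.03 for 20 to 50 kb, -0.07 for 50 to 100 kb, -0.1 for 100 to 200 kb, -0.11 for 200 to 500 kb and -0.12 for 500 kb or more. The 24 of these others with spans of at least 1000 kb, the length of most of the very long neuronal genes, had a median of -0.08, which is nearer to 0 than that of the whole bin. In P4htm-/- cortex these medians ran only from -0.03 to -0.01. For KO_i minus WT_i they were -0.06, 0, 0.04, 0.06, 0.09 and 0.12 in the same order. The rank correlation of span with the difference over 13384 detected genes was -0.28 for the WT response, 0.041 for the P4htm-/- response and 0.271 between the injured sides, as a description across genes, which are not independent replicates. Among the 34 long genes, which share the same 4 arrays, it was -0.156 in WT cortex and -0.175 in P4htm-/- cortex.

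**Figure D5:**
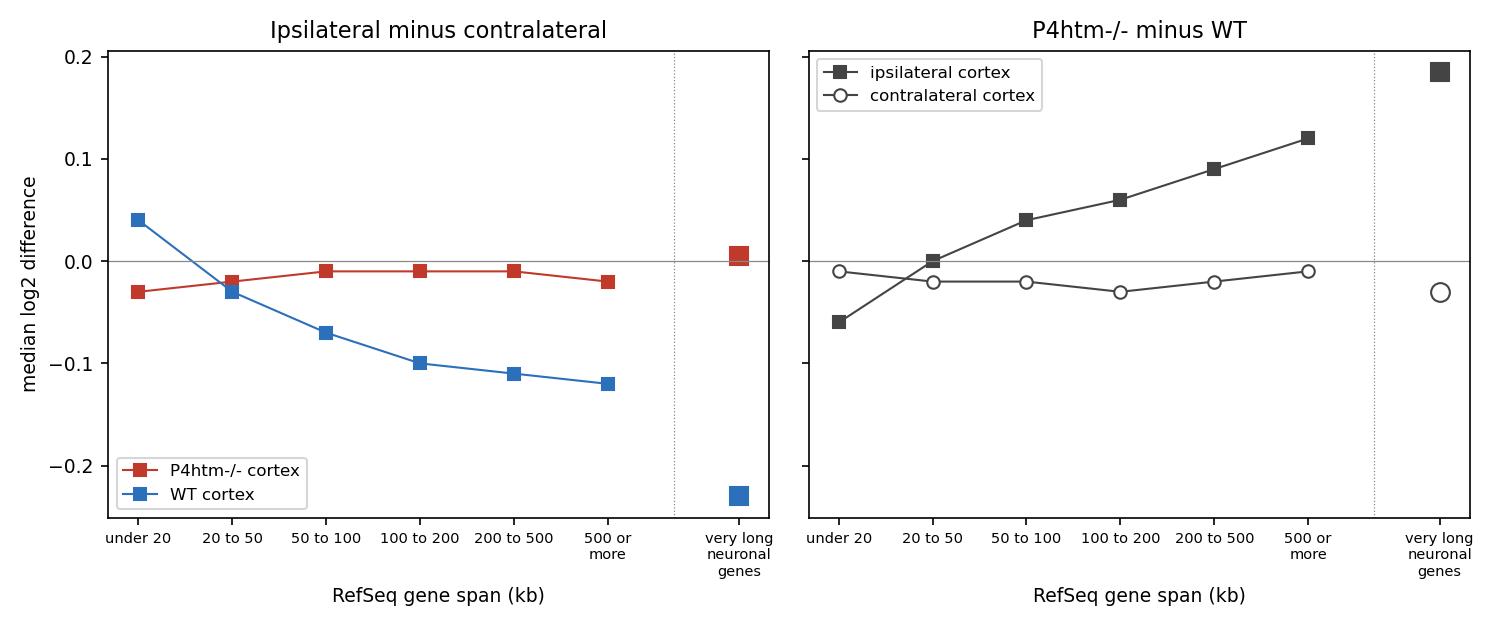
Median log2 difference of genes grouped by RefSeq span, ipsilateral minus contralateral in P4htm-/- (red) and WT cortex (blue) at the left, and P4htm-/- minus WT in ipsilateral (squares) and contralateral cortex (open circles) at the right, with the very long neuronal genes as larger symbols. The WT medians run from 0.04 under 20 kb to -0.12 at 500 kb or more and -0.23 in the very long neuronal genes, while the P4htm-/- medians stay between -0.03 and 0.005.

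Compact neuronal genes were used to set length apart from neuronal use. The 31 neuronal genes of less than 50 kb that were measured, with a median span of 9.1 kb, had medians of -0.02 in P4htm-/- and -0.14 in WT cortex, with 18 and 26 below 0, and of 0.1 in KO_i minus WT_i. WT_i was lowest for 67.7% of the 31 and for 60.4% of the 154 other detected genes of at least 500 kb. With a mean of at least 8, the 92 other genes of at least 500 kb had a WT median of -0.15, and 2826 genes under 20 kb had 0.025. Neuronal use and length are linked among genes, and their parts were not tested.

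Paralogs and binding partners of the long genes gave a further set of 94 listed genes, of which 88 were detected. Their median was 0.01 in P4htm-/- cortex, with 46 above 0 and 41 below, and -0.17 in WT cortex, with 18 above and 70 below. Of all detected genes, 41.7% were above 0 and 54.7% below in P4htm-/- cortex, and 45% and 52.9% in WT cortex. The median of KO_i minus WT_i was 0.115, with 69 above 0 and 17 below, beside 46.9% and 50.8% of all genes. Partners of at least 500 kb had a WT median of -0.17, with 15 of 16 below 0, and partners under 100 kb had -0.105, with 29 of 40 below 0. In WT cortex 1 of the 88 partners was called lower and 0 higher, beside 0.443% and 2.42% of all detected genes. It was Kcnip2, a Kv4 subunit of heart and brain, at 9.03 in KO_i and 9.22 in KO_c, and at 8.91 in WT_i and 9.50 in WT_c. All 16 scaffold and release-site partners, with a median of 0.145, and all 6 contactin and IgLON partners, with a median of 0.195, were higher in KO_i than in WT_i.

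By role, the adhesion partners with the widest WT differences were Lrrtm3 (-0.5) and Cbln2 (-0.4), both ligands at neurexin synapses, with Il1rapl2 (-0.36) and Cbln4 (-0.34). Lrrtm3 read 8.69 in KO_i and 8.72 in KO_c, and 8.50 in WT_i and 9.0 in WT_c, so that the 2 genotypes differed on the uninjured side as well. Cbln2 read 7.84 in KO_i and 8.21 in KO_c, and 7.92 in WT_i and 8.32 in WT_c, and was lower on the injured side in both genotypes. Among contactins and IgLON genes Cntn6 (-0.44), Cntn2 (-0.36), Negr1 (-0.32) and Cntn3 (-0.23) had the widest WT differences. Among scaffold partners these were Unc13a (-0.44), which primes vesicles for release, Rims3 (-0.4), Dlgap2 (-0.35) and Dlgap3 (-0.31). Channel partners included the sodium channel Scn1a at -0.4 and the Kv4 partner Dpp6 at -0.26, while Kcnip3 was at 0.32. Among signaling partners Nrg2 was at 0.39, and Sort1, Erbb3 and Csmd2 were at -0.32, -0.24 and -0.22. The nuclear partners with the widest WT differences were Nova1 (-0.32), Rbfox3 (-0.25), Sox6 (-0.23) and Nova2 (-0.11). Of the 10 nuclear partners, 8 were below 0 and 2 above in WT cortex, with a median of -0.055.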

How the data were processed

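Total RNA of the ipsilateral and contralateral cortex of 4 mice per genotype was pooled, primed from the poly(A) tail, labelled and hybridized to 1 array per condition by the authors. The deposited values are log2 RMA values per probe set, and the software named is GenePattern, with no version given in the sources used here. RMA removes background and brings all arrays to a common distribution, so a change shared by every gene would be lost. The base of the logarithm was taken as 2 from the range of 2.51 to 14.9.

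Of 45101 probe sets, 34958 name 1 gene and were used, 932 name several, and 9211 have no gene in the annotation table. Entrez IDs matched 34754 probe sets to RefSeq (GRCm38.p6), which gave symbols and gene spans only, since no build is named for the arrays. A gene was read from its probe set with the highest mean. Differences were taken between arrays, and the calls, detection rule and role groups are given in the results. No sample column was left unused.

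The members, the lists of partners, compact genes and markers, and the comparisons were chosen with earlier results of these data known. Every member could be named, and of the partners those called and up to 4 per role group with the widest WT difference. Ttr and the probe sets called in WT cortex were named after their values were seen. Counting was tested on simulated data. Alternatives were the mean or lowest detected probe set per gene, 2 other filters, no filter, median centring, cyclic loess, a span minimum, a 2-fold rule and the list without Lrp1b. Cyclic loess was run with limma 3.58.1 in R 4.3.3, and all other steps in Python 3.11.15 with pandas 2.3.3.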

Additional observations from a re-analysis of the deposited data

Results flagged for a closer look

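The median of the very long neuronal genes was near 0 in P4htm-/- cortex, at 0.005, and at -0.23 in WT cortex. Taken gene by gene, the P4htm-/- response minus the WT response had a median of 0.215. With other choices of probe set the P4htm-/- median was -0.064 or -0.065, of the same sign as in WT cortex. The difference between the responses was not tested, since there was 1 array per condition, and the same holds for each gene below.

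Single genes were listed when, on the probe set used, both differences had opposite signs and were at least 0.1 in size. Tenm2 was 0.17 in P4htm-/- and -0.15 in WT cortex, ipsilateral minus contralateral, a gap of 0.32. Its other detected probe sets missed this rule, the brighter ones at 0.23 and -0.09 and at -0.21 and -0.72. Nrg1 was at 0.11 and -0.17, a gap of 0.28, and its P4htm-/- minus WT differences, 0.13 on the ipsilateral and -0.15 on the contralateral side, had the same gap of 0.28. Csmd1 was at 0.11 in P4htm-/- and -0.31 in WT cortex, and at 0.11 ipsilaterally and -0.31 contralaterally between the genotypes, with a gap of 0.42 either way, but its other detected probe set, at 0.03 and -0.46, and at 0.46 and -0.03 between the genotypes, did not meet the minimum of 0.1. P4htm-/- minus WT was 0.27 ipsilaterally and -0.13 contralaterally for Dmd, a gap of 0.4. On the other detected probe set of Dmd these were 0.09 and -0.2, short of the minimum of 0.1. For Sorcs1 they were 0.2 and -0.12, a gap of 0.32. The other detected probe sets of Sorcs1 gave 0.43 and 0.01 contralaterally, so the opposite signs rest on 1 probe set. Macrod2 has no settled direction. The probe set used was at -0.14 in P4htm-/- and 0.16 in WT cortex, and at -0.16 ipsilaterally and 0.14 contralaterally between the genotypes, a gap of -0.3 in each case, and its other detected probe set had the opposite sign in all 4 differences. Nrg1, Csmd1 and Macrod2 lay within 2 units of background on every array.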

How the results depend on the processing

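No paired analysis was possible because there was 1 pooled array per condition. Over the alternatives the WT median of the very long genes stayed between -0.23 and -0.187, that of KO_c minus WT_c between -0.05 and 0, that of P4htm-/- cortex between -0.065 and 0.035, that of KO_i minus WT_i between 0.13 and 0.225, and the gap between the responses between 0.11 and 0.225. Of 45 medians under an alternative, 39 moved by less than 0.05, and of 40 counts 34 stayed within 1.5 times. Most of these counts were 0 and stayed at 0, and some settings kept the same genes, so these totals say little about stability. With the mean of all probe sets of a gene the P4htm-/- median was -0.064, KO_i minus WT_i 0.13 and the gap 0.13, and with the lowest detected probe set they were -0.065, 0.13 and 0.11. The call of Lrp1b in WT cortex gave way to 0 calls with the mean of probe sets, a background at the 99th percentile or a 2-fold rule. Of all genes, 2.18%, 2.14% and 0.818% were called in these settings, in either direction. The list without Lrp1b also gave 0 calls, as it had to, since Lrp1b was the only call. The lowest detected probe set gave 5 calls in WT cortex, beside 3.81% of all genes, and 1 call in KO_c minus WT_c, beside 0.877%. The list without Lrp1b and the filter for genes above background on all 4 arrays were chosen after seeing the data. All 35 genes pass a span of 500 kb, and the filter on all 4 arrays kept all 34 detected genes, so neither setting could change a median.

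Without replicate arrays, differences of this size cannot be told apart from variation between mice or pools, and signal near background limits Lrp1b, Csmd1, Nrg1, Cntn5 and Macrod2.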

Other observations

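Few other genes with spans of at least 500 kb passed 1.5-fold. In WT cortex 1 of 153 was called higher and 1 lower, beside 2.42% and 0.443% of all detected genes. In P4htm-/- cortex 0 of 154 were called, beside 1.53% higher and 0.165% lower. Between the genotypes 1 of 153 was called higher on the uninjured side, beside 0.227%, and 1 of 154 on the injured side, beside 0.0898%. Both values were above background for 3 genes, and they and Astn2 were named after their values were seen. Cadps2, which acts in the release of dense-core vesicles, read 10.45 in KO_i and 10.82 in KO_c, and 10.20 in WT_i and 10.82 in WT_c, a WT difference of -0.62. Its uninjured sides were equal and WT_i was the lowest array, as for most of the very long neuronal genes. Thsd7b read 5.91 in KO_i and 5.52 in KO_c, and 6.10 in WT_i and 5.49 in WT_c, and was higher on the injured side of both genotypes, by 0.61 in WT cortex. Gabrg3, a GABA-A receptor subunit, read 7.43 in KO_i and 7.45 in KO_c, and 7.28 in WT_i and 6.75 in WT_c, a difference of 0.7 between KO_c and WT_c. Astn2, an astrotactin of migrating neurons, read 4.97 in KO_i and 4.83 in KO_c, while 4.35 in WT_i and 4.42 in WT_c were not above background, so that only a bound, which falls short of 1.5-fold, can be given for its difference.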
